A study of Mus musculus with 3 samples.

Results

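Vomeronasal receptor genes lie in dense gene clusters, and 5 of these clusters were followed in DNA of the mouse frontal cortex. The intervals were set by position on mouse build mm9. Those of type 1 receptors (V1R) span 56.8 to 58.1 Mb and 89.75 to 90.35 Mb of chromosome 6, called proximal and distal here, and 22.2 to 23.4 Mb of chromosome 13. Those of type 2 receptors (V2R) span 7.0 to 8.9 Mb of chromosome 7 and 18.1 to 20.8 Mb of chromosome 17. A tiled region, which is a run of at least 3 array probes with no more than 500 bp from one start to the next, was a member when its midpoint fell in an interval. This gave 129 of the 28880 tiled regions on the array, 84 in V1R and 45 in V2R intervals, with 1789 probes. The 3 V1R intervals held 33 proximal regions, 18 distal regions and 33 regions on chromosome 13. The V2R intervals held 16 regions on chromosome 7 and 29 on chromosome 17.

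V1R and V2R proteins are G protein-coupled receptors of sensory neurons in the vomeronasal organ, where they detect pheromones and other chemical cues. V1Rs are carried by neurons of the apical layer, and V2Rs, which have a large extracellular domain, by neurons of the basal layer. A sensory neuron generally uses 1 or a few of these genes. Methylation in mammals is mostly on the cytosine of CG dinucleotides. The antibody used here tends to pull down more of the fragments that carry many methylated cytosines, not in strict proportion to their number. A CG-poor fragment can therefore give a low signal at any degree of methylation, and a log2 ratio is not a percentage of methylation.

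The study measured DNA methylation by methylated DNA immunoprecipitation and array hybridisation in naive male C57BL/6 mice 2 months of age. Each of 3 arrays held frontal cortex DNA pooled from 3 mice, with 2 µg of DNA and 10 µg of an antibody against 5-methylcytosine. Input DNA carried Cy3 and the antibody-bound fraction Cy5 on every array, so a dye effect and enrichment cannot be told apart. There was 1 group and no second condition; the comparisons are between parts of the genome, and the replicate is the array, which the sample titles number 1 to 3. The descriptions give replicate number 1 to all 3 arrays; if arrays shared a pool, the SDs and p-values would cover the spread between arrays only.

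The antibody binds methylated cytosine, so the CG content of receptor promoters is given as background. Its link to the array values was not tested. In RefSeq promoters of build GRCm38.p6, each a window of 300 bases around the start, genes whose symbol begins with Vmn1r (206 promoters, pseudogenes included) had a median of 1 CG dinucleotide. Those beginning with Vmn2r (118 promoters) had a median of 1 as well, while the 32527 promoters of other genes had a median of 7. On chromosomes 6 and 13, 28 of 78 Vmn1r promoters (35.9%) held no CG and none held 10 or more. On chromosomes 7 and 17, 24 of 81 Vmn2r promoters (29.6%) held no CG and 1 (1.23%) held 10 or more, against 43.9% of the promoters of other genes. The protein-coding promoters with the median and with the highest number of CGs in each class are shown with CG in capitals, to let the common sparse promoter and the exceptions be seen.
Vmn1r12, with the V1R median of 1 CG (GRCm38.p6 chr6:57158670-57158969, plus strand): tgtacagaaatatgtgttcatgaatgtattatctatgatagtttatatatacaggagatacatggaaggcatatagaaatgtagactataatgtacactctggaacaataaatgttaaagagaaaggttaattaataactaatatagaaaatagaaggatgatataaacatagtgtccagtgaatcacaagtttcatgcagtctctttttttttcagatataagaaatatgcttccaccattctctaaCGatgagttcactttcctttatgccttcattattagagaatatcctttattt
Vmn1r54, with the most CGs among V1R promoters, 6 (GRCm38.p6 chr6:90268856-90269155, plus strand): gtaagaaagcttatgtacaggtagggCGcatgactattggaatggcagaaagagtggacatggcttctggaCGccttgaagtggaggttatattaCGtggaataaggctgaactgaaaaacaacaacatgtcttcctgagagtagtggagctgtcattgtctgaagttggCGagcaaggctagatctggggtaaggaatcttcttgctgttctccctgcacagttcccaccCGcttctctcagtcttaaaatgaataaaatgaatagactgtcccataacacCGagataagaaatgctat
Vmn2r106, with the V2R median of 1 CG (GRCm38.p6 chr17:20285381-20285680, minus strand): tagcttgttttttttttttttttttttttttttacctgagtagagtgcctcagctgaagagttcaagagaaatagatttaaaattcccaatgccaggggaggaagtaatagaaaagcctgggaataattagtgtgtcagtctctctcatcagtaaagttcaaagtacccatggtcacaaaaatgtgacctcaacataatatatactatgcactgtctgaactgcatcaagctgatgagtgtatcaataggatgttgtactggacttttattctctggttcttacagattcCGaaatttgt
Vmn2r29, with the most CGs among V2R promoters, 23 (GRCm38.p6 chr7:7278240-7278539, minus strand): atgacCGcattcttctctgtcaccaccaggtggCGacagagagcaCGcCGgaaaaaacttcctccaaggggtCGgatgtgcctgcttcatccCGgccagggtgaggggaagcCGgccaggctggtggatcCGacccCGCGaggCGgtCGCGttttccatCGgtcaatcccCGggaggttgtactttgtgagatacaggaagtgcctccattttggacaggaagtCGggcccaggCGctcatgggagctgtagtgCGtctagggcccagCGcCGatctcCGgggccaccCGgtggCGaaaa
Vmn1r12 and Vmn2r106 have the median CG number of their classes, and both are rich in A and T, with 28.7% and 35.3% of G and C. The median was 35.3% for Vmn1r promoters on chromosomes 6 and 13 and 37.7% for Vmn2r promoters on chromosomes 7 and 17. The printed promoter of Vmn2r29, with 62.3% of G and C, is the only receptor promoter of the table with 10 or more CGs; the table lists another promoter of the same gene, with 0 CGs and 38.3% of G and C.

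**Figure D1:**
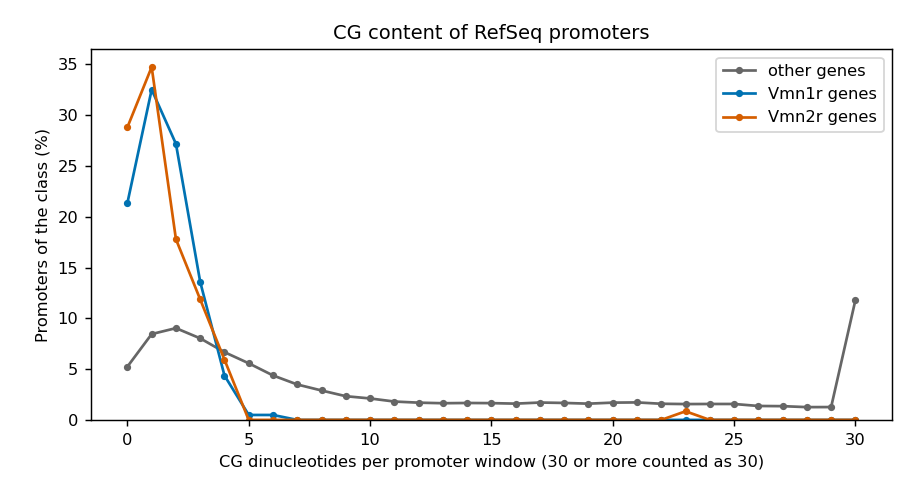
CG content of receptor promoters. The horizontal axis gives the number of CG dinucleotides in the 300-base RefSeq promoter and the vertical axis the percentage of promoters, for Vmn1r genes (blue), Vmn2r genes (orange) and other genes (grey). Both receptor families crowd at low counts, with a median of 1 against 7 in other genes, and the single orange point far to the right is Vmn2r29 with 23.

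The TATAAA motif, the core of the TATA box to which the TATA-binding protein binds, was counted on both strands of the same windows; it shares no letters with CG. It was present in 24 of 78 Vmn1r promoters on chromosomes 6 and 13 (30.8%) and in 12 of 81 Vmn2r promoters on chromosomes 7 and 17 (14.8%). The share over all 32851 promoters was 13.6%. Among the printed promoters, Vmn1r12 holds it. These are matches of letters and were not tied to any region of the array, because the promoter table and the array use different builds.

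The gene order of GRCm38.p6 shows which neighbours the receptors have. The run from Vmn1r4 to Vmn1r-ps23 on chromosome 6 holds 28 Vmn1r genes among 33 protein-coding genes, and the others are Ppm1k, Herc6, Pyurf, Lancl2 and Vopp1. The second run on chromosome 6, which ends with Vmn1r54, holds 15 Vmn1r genes of 16. The other is V1ra8, whose symbol begins with V1r and was not counted as Vmn1r. The run on chromosome 13 holds 36 of 37, with Gm11295 as the other. The chromosome 7 run holds 17 Vmn2r genes of 20, with Zfp418, Zfp772 and Clcn4 as the others. The run on chromosome 17 holds 21 Vmn2r and 2 Vmn1r genes of 26, beside formyl peptide receptor genes such as Fpr-rs6 and Fpr-rs7. The mm9 regions were not assigned to single genes.

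Before the ratios, the brightness of the probes has to be given, because a ratio is measured only where a channel rises above the background of the array. Input DNA was well above background, by the scanner software's own flag, on all 3 arrays for 35.7% of the V1R and 32.4% of the V2R probes, against 65.2% of the probes of all regions. The share ran from 23.5% on chromosome 17 and 25% in the proximal interval to 35.2% on chromosome 13, 49.4% on chromosome 7 and 54.4% in the distal interval. Neither channel rose above background on any array for 38.7% of the member probes and 14.2% of all probes. Such a probe has no measured ratio, and its value is made from signals near background. Array 1 was brighter than the others: input was above background for 61.4% of V1R probes on array 1, 39.3% on array 2 and 39.0% on array 3. The same held for V2R probes, with 58.8%, 36.6% and 34.7%. Receptor paralogs can be nearly identical, so a probe may also bind DNA of another family member; probe sequences were not used here and this was not tested.

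**Figure D2:**
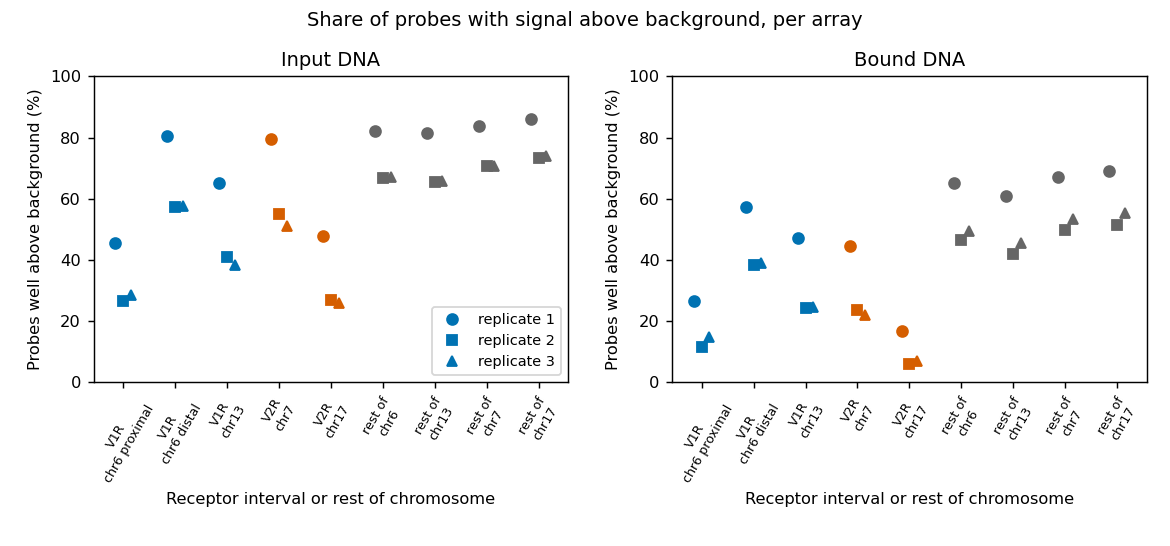
Share of probes well above background in each receptor interval and in the rest of each chromosome, for input DNA (left) and bound DNA (right); each symbol is 1 array. Among the intervals, chromosome 17 and the proximal interval of chromosome 6 have the lowest shares, every interval lies below the rest of its chromosome on each array, and array 1 is highest throughout.

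Most V2R regions lay below the array median, and most V1R regions were not told apart from it. A region was called when limma's 1-group fit over all 28880 regions gave a Benjamini-Hochberg adjusted p under 0.05 against the array median, which is set to 0. Of the 45 V2R regions, 30 (66.7%) were lower and 2 (4.44%) higher, where 38.1% of all regions were lower and 27.9% higher. Of the 84 V1R regions, 24 (28.6%) were lower, 14 (16.7%) higher and 46 not called. In the rest of chromosomes 6 and 13, 39.2% were lower and 26.5% higher, and in the rest of chromosomes 7 and 17 these shares were 38.2% and 29.9%. Another zero point changes the split. The most common ratio, or mode, lay 0.525, 0.675 and 0.475 above the median on arrays 1 to 3. With the mode as zero, 68 V1R regions were lower and 0 higher and 42 V2R regions lower and 1 higher, against 69.9% lower and 11.1% higher of all regions. With the log2 ratios of the authors' series matrix, 60 V1R regions were lower and 5 higher and 41 V2R regions lower and 1 higher, against 38.9% and 30.8% of all regions.

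The mean over V2R regions was -0.84, -0.33 and -0.40 on arrays 1 to 3, a mean log2 ratio of -0.52 ± 0.28 (SD, n = 3 arrays). The mean over V1R regions was -0.21, -0.06 and -0.09, or -0.12 ± 0.08. Every array was below 0 in both classes, and array 1 was lowest. V1R regions exceeded V2R regions by 0.63, 0.26 and 0.31, a difference of 0.40 ± 0.20 that had the same sign on 3 of 3 arrays. A two-sided exact permutation test that flips the signs of the arrays gave p = 0.25, which is the lowest that 3 arrays allow, so no difference between classes can reach 0.05 in this design.

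Against the rest of their own chromosomes, V2R regions differed by -0.82, -0.31 and -0.35 on the 3 arrays, a mean of -0.49 ± 0.28 (exact sign-flip p = 0.25). Without array 1 this difference was -0.33. V1R regions differed from the rest of their chromosomes by -0.13, -0.01 and 0.01, a mean of -0.04 ± 0.07 (exact sign-flip p = 0.75), which is smaller than the spread between arrays. That value depends on the source of the ratios: with the authors' series matrix, V1R regions lay below the rest on 3 of 3 arrays, with a mean of -0.48 ± 0.03, and V2R regions at -1.02 ± 0.12. Single regions of the classes overlapped widely, from -1.63 to 0.79 in V1R and from -1.77 to 1.52 in V2R intervals.

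The intervals of a class were not alike. The chromosome 7 interval lay furthest below its chromosome, with differences of -1.07, -0.67 and -0.68 on the 3 arrays, a mean of -0.81 ± 0.23. The distal V1R interval followed with -0.50, -0.33 and -0.25, a mean of -0.36 ± 0.13, and chromosome 17 with -0.67, -0.10 and -0.16, a mean of -0.31 ± 0.31, or -1.06 ± 0.13 with the series matrix. The order changed with the series matrix. There chromosome 7 was at -0.93 ± 0.10 and the distal interval at -0.40 ± 0.06, so chromosome 17 lay lowest. The chromosome 17 value of -0.31 rested on array 1 and was -0.13 without it. The proximal interval differed from the rest of chromosome 6 by less than its spread, -0.0037 ± 0.08, but lay -0.72 ± 0.01 from it, with 1 sign on 3 of 3 arrays, with the series matrix. Chromosome 13 was slightly above its chromosome, by 0.05, 0.15 and 0.10, a mean of 0.10 ± 0.05, and below it with the series matrix, at -0.29 ± 0.11. The exact sign-flip p was 1.0 for the proximal interval and 0.25 for the other 4, and 0.3125 for each of these 4 after Benjamini-Hochberg adjustment over the 5 intervals.

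Where input DNA was measured, V2R values were lower and their arrays closer together. Over probes with input above background on all arrays, with the zero point kept, the V2R mean was -1.41, -1.47 and -1.48, or -1.45 ± 0.04, from 37 regions and 209 probes. The V1R mean was -0.47, -0.60 and -0.61, or -0.56 ± 0.08, from 58 regions and 369 probes. Of these V2R regions 35 of 37 (94.6%) were lower and 2 higher, and of the V1R regions 37 of 58 (63.8%) were lower and 8 higher, against 47.9% lower and 29.0% higher of all regions measured so. V2R regions then lay -1.30 ± 0.06 from the rest of their chromosomes and V1R regions -0.32 ± 0.04, and V1R exceeded V2R by 0.89 ± 0.04, all of 1 sign on 3 of 3 arrays (exact sign-flip p = 0.25). By interval the difference from the rest of the chromosome was -1.41 ± 0.11 on chromosome 7, -1.23 ± 0.03 on chromosome 17, -0.60 ± 0.10 in the proximal and -0.56 ± 0.09 in the distal interval of chromosome 6, and -0.02 ± 0.03 on chromosome 13. The same filter moved the mean over all regions to -0.17 ± 0.11. It keeps probes whose bound signal may be below background, where the bound DNA was not measured. It also selects by the input, by which the ratio is divided, and the effect of this on the means was not tested. With the series matrix and the same filter, the V2R mean was -0.93 ± 0.05 and the V1R mean -0.09 ± 0.02. The regions lay -1.21 ± 0.06 and -0.28 ± 0.02 from the rest, respectively. Of 56 V1R regions 22 were then lower and 17 higher. The shares of all regions are not given for this setting.

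**Figure D3:**
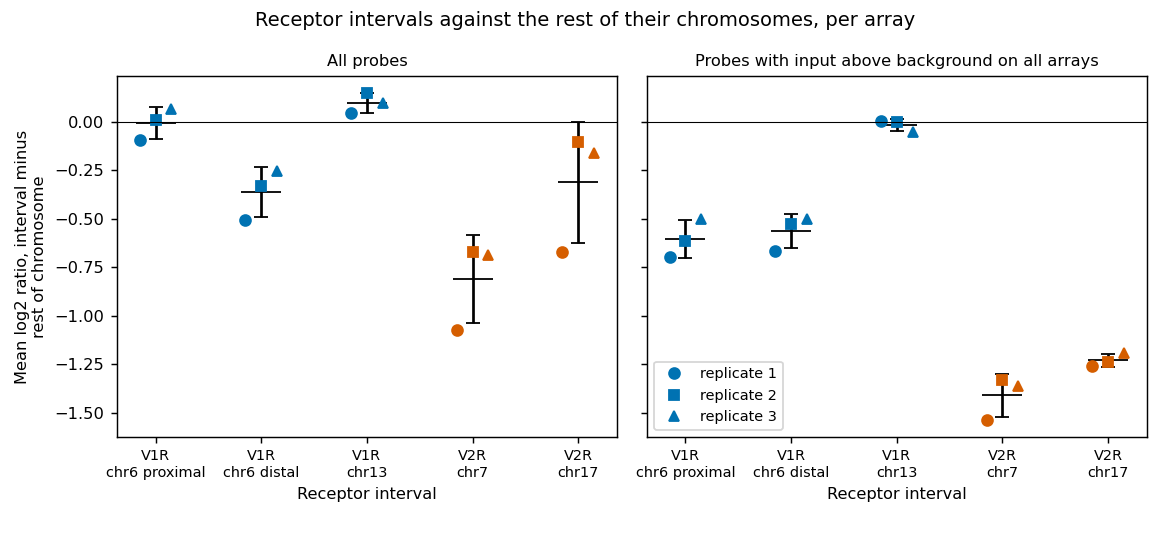
Mean log2 ratio of bound over input DNA of each interval minus that of the rest of its chromosome. The left panel uses all probes and the right panel probes with input above background on all arrays; symbols are arrays, bars the mean and SD over 3 arrays, blue V1R and orange V2R. On the right both V2R intervals lie between -1.54 and -1.19 on every array while chromosome 13 stays near 0; on the left array 1 lies lowest in each interval.

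Requiring both channels above background left 33 V1R regions with 186 probes and 9 V2R regions with 42 probes. V1R then exceeded V2R by 0.79 ± 0.09, and the V2R mean lay -1.12 ± 0.07 from the rest of the chromosomes. Of the 9 V2R regions 6 were lower and 2 higher, and of the 33 V1R regions 10 (30.3%) were lower and 13 (39.4%) higher, where 22.7% of all such regions were lower and 51.6% higher. Chromosome 17 kept only 2 regions and 7 probes, which differed from the rest by 0.10 ± 0.34. Bound DNA below background was common whatever the call: 43 of 45 V2R regions and 82 of 84 V1R regions held at least 1 probe with bound signal below background on all arrays, among them 29 of the 30 and 23 of the 24 called lower. This was common over the array too, in 25017 of all 28880 regions and 10563 of the 11003 called lower.

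The 5 intervals are best read one by one, and the regions named here were chosen by rank among members with at least 5 probes and input above background in at least 50% of the measurements. On chromosome 7, 13 of 16 regions were lower, against 38.6% of the regions in the rest of the chromosome. Of these 13, 7 were lower by at least 2-fold, a size that 8.13% of all regions reached downward. Upward it was reached by 1 of the 16, against 8.84% of all regions. The lowest was chr7:7459542-7460932 (mm9) with -1.98, -1.87 and -1.46 on the 3 arrays, a mean of -1.77 ± 0.28 (limma adjusted p = 6.21e-07). The next were chr7:7199835-7201241 with -1.76 ± 0.32 and chr7:7290043-7291470 with -1.57 ± 0.34. All 3 lay below -1.3 on each array, although bound signal was above background in only 18 of 39, 22 of 60 and 13 of 42 measurements, respectively.

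A single chromosome 7 region went the other way. At chr7:7162306-7162893, 9 probes gave 1.88, 1.38 and 1.31, a mean of 1.52 ± 0.31 (limma adjusted p = 2.04e-06). All 27 of its measurements were above background in both channels, and its mean log2 input signal of 12.5 was far above the interval's median of 8.82. The next region on its right, chr7:7163376-7163714, had 5 probes and a mean of -0.23 ± 0.42, which was not called (limma adjusted p = 0.191). The high value thus ended within a short distance on that side. On its left the nearest region, chr7:7122982-7124234, was lower at -1.15 ± 0.10. Further left, chr7:7089252-7089997 was lower as well at -0.68 ± 0.38.

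On chromosome 17, 17 of 29 regions were lower and 1 was higher, and none of these lower regions reached 2-fold. In the rest of the chromosome, 37.6% were lower and 29.5% higher. The 3 regions bright enough to be named were all lower. The one at chr17:18560188-18561241 had -1.30, -0.80 and -0.82, a mean of -0.98 ± 0.29 (limma adjusted p = 4.95e-05). The other two were chr17:20184948-20186385 with -0.61 ± 0.22 and chr17:19497961-19499269 with -0.44 ± 0.09. Over their probes with input above background these 3 regions averaged -1.87, -1.65 and -1.15, lower than over all probes. The single higher region, chr17:20706207-20707478, was picked after its values were seen; it had 0.55, 0.61 and 0.52 on the arrays, but input was above background in only 15 of its 54 measurements.

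The proximal V1R interval on chromosome 6 had 9 regions higher, 7 lower and 17 not called of 33. In the rest of the chromosome, 28.1% were higher and 35.3% lower. Of the 9 higher regions, 7 had no channel above background on any array in at least 50% of their probes, so most of these calls rest on probes without a measured ratio. The lower calls were gathered: 6 of 7 lay in a stretch of 291 kb, chr6:57485219-57776170, which was described after its values were seen. The 8 regions of the stretch had a mean of -0.57, -0.50 and -0.41 on the arrays, or -0.49 ± 0.08, and 70.4% of their input measurements were above background. The 25 regions elsewhere in the interval had a mean of 0.12 ± 0.07 and 23.6% of input measurements above background. Brightness thus moved with the ratio inside the interval, and its part in the difference was not tested.

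The lowest region of the V1R intervals lay in that stretch, as did all regions of the proximal interval named by rank. Other protein-coding genes lie among these receptor genes. Regions were not assigned to genes, so a region of the stretch may belong to no receptor gene. At chr6:57485219-57486291 the 11 probes gave -2.02, -1.48 and -1.40, a mean of -1.63 ± 0.34 (limma adjusted p = 1.51e-06), with input above background in 29 of 33 measurements and bound DNA in 10. Next came chr6:57774976-57776170 with -0.88 ± 0.09 and chr6:57651438-57653268 with -0.82 ± 0.26. The other named regions of the interval, chr6:57530322-57531166 at -0.45 ± 0.25, chr6:57551748-57552284 at -0.34 ± 0.19 and chr6:57740894-57742142 at -0.03 ± 0.19, were lower, lower and not called. One short region among them was higher: chr6:57552872-57553089, with 4 probes and 11 of 12 measurements above background in each channel, had 0.96, 0.92 and 0.25, a mean of 0.71 ± 0.40. It falls outside the naming rule and was chosen after its value was seen.

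In the distal V1R interval 13 of 18 regions (72.2%) were lower and 2 higher, against 35.3% and 28.1% in the rest of chromosome 6. The interval's share of lower calls was near that of the V2R class. The lowest was chr6:89970708-89972076 with -1.42, -0.99 and -0.96, a mean of -1.12 ± 0.26 (limma adjusted p = 1.43e-05). The next were chr6:89890318-89891517 at -0.80 ± 0.15 and chr6:89795409-89796742 at -0.76 ± 0.30. The higher regions lay near the distal end, chr6:90274998-90276314 with 0.86, 0.55 and 0.46, a mean of 0.63 ± 0.21 (limma adjusted p = 0.00087), and chr6:90318276-90319800 with 0.38 ± 0.12. Next in height, chr6:90072107-90072863 was not called at 0.12 ± 0.15. Other genes follow the last receptor gene of this run, and regions were not assigned to genes. The 2 higher regions may therefore belong to no receptor gene. Over all probes the distal interval lay -0.36 ± 0.05 from the proximal one, but over probes with input above background the sign turned, to 0.04 ± 0.04.

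On chromosome 13 most regions were not called. Of the 33 regions 26 were not called, 4 were lower and 3 higher, where 45.2% of the rest of chromosome 13 were lower and 24.0% higher. The highest was chr13:23324787-23326209 with 0.74, 0.95 and 0.68, a mean of 0.79 ± 0.14 (limma adjusted p = 0.000109), followed by chr13:22684675-22686053 at 0.41 ± 0.22 and chr13:22919804-22921163 at 0.24 ± 0.15, the last not called. The named low regions, at -0.19 ± 0.09 (chr13:22565301-22566716), -0.17 ± 0.08 (chr13:22898295-22899564) and -0.05 ± 0.14 (chr13:23253395-23254556), were not called. Replicate arrays ordered these regions less well than those of other intervals, with Pearson correlations across the 33 regions of 0.41 to 0.57, against 0.80 to 0.83 across all 129 members; regions share arrays and are not independent.

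**Figure D4:**
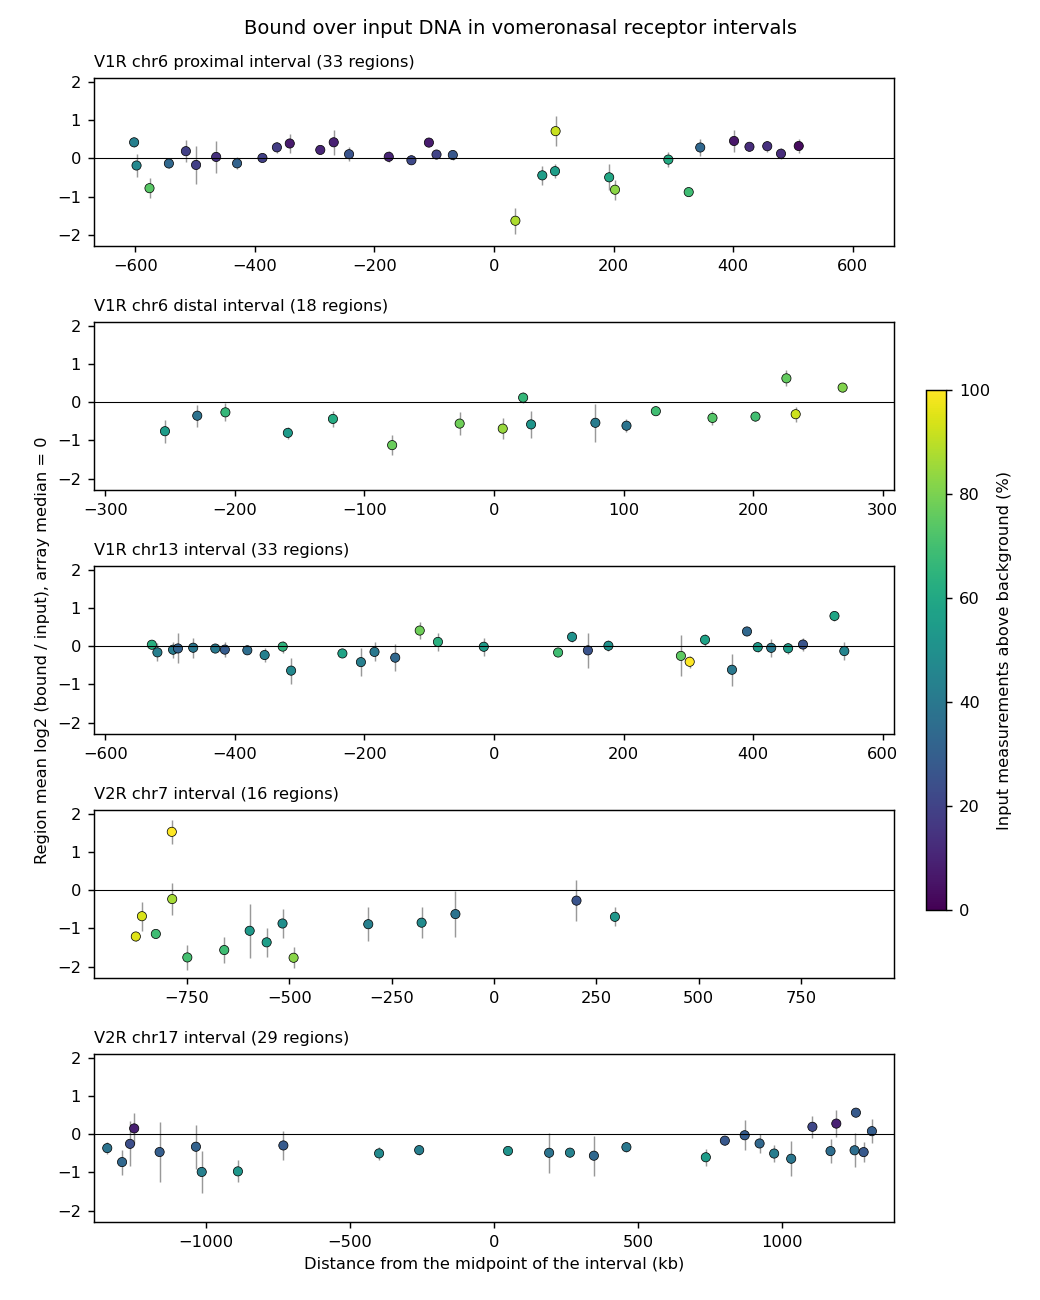
Region means along each interval. The horizontal axis is the distance of the region from the midpoint of its interval in kb and the vertical axis the mean log2 ratio of bound over input DNA with the array median at 0; bars are the SD over 3 arrays and the colour gives the percentage of input measurements above background. On chromosome 7 all regions but 1 lie below 0, and in the proximal interval of chromosome 6 the dark, dim regions lie near or above 0 while the brighter stretch right of the midpoint reaches -1.63.

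Values on both sides of the interval limits were mixed. At the start of chromosome 7 the first member had -1.21 ± 0.12 and the nearest region outside -0.29 ± 0.09. At the start of chromosome 17 these values were -0.37 ± 0.16 and 0.80 ± 0.25, and at its end 0.08 ± 0.32 and -0.05 ± 0.31. At the end of chromosome 13 the last member had -0.13 ± 0.24 and the nearest region outside -1.51 ± 0.23. The start of the proximal interval had 0.42 ± 0.12 inside and 0.38 ± 0.24 outside.

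The centre of a V1R region was on average more enriched than its edges, the reverse of the order over the array. The centre is taken as probes within 200 bp of the midpoint and the edges as probes over 500 bp from it, in regions of 1000 to 1800 bp; over the 18326 such regions the median of centre minus edges was -0.27. Of the 93 members with this measure, 25 (26.9%) were higher in the centre and 17 (18.3%) lower by limma's adjusted p, against 14.7% higher and 33.5% lower of all regions tested. V1R regions had 17 higher and 9 lower of 61, and V2R regions 8 higher and 8 lower of 32.

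Centre minus edges over V1R regions was 0.15, 0.25 and 0.16 on the 3 arrays, a mean of 0.19 ± 0.06. By interval it was 0.36 ± 0.09 in the distal interval and 0.19 ± 0.10 on chromosome 13. In the proximal interval it was 0.04 ± 0.07, with array 1 below 0. With the series matrix the V1R mean was 0.07 ± 0.07, with array 3 below 0. Relative to the rest of their chromosomes V1R regions were higher by 0.49, 0.46 and 0.36, or 0.44 ± 0.07, with the same sign on 3 of 3 arrays (exact sign-flip p = 0.25). Over V2R regions centre minus edges was 0.06 ± 0.01, and 0.30 ± 0.05 above the rest of their chromosomes. V1R exceeded V2R by 0.13 ± 0.05. With the series matrix this difference was 0.04 ± 0.15, with arrays 1 and 3 below 0. Over probes with input above background, where 17 V1R and 9 V2R regions had the measure, V1R centres exceeded edges by 0.57, 0.69 and 0.64, or 0.63 ± 0.06. By interval this was 0.71 ± 0.14 in the distal interval and 0.68 ± 0.15 on chromosome 13. The proximal interval went the other way, with -0.48 ± 0.23 and 3 of 3 arrays below 0. The 9 V2R regions were all on chromosome 7; their value was -0.06 ± 0.22, and no direction is given for V2R. Of these 26 regions 9 were higher and 3 lower, against 18.1% and 43.4% of all regions with the measure.

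**Figure D5:**
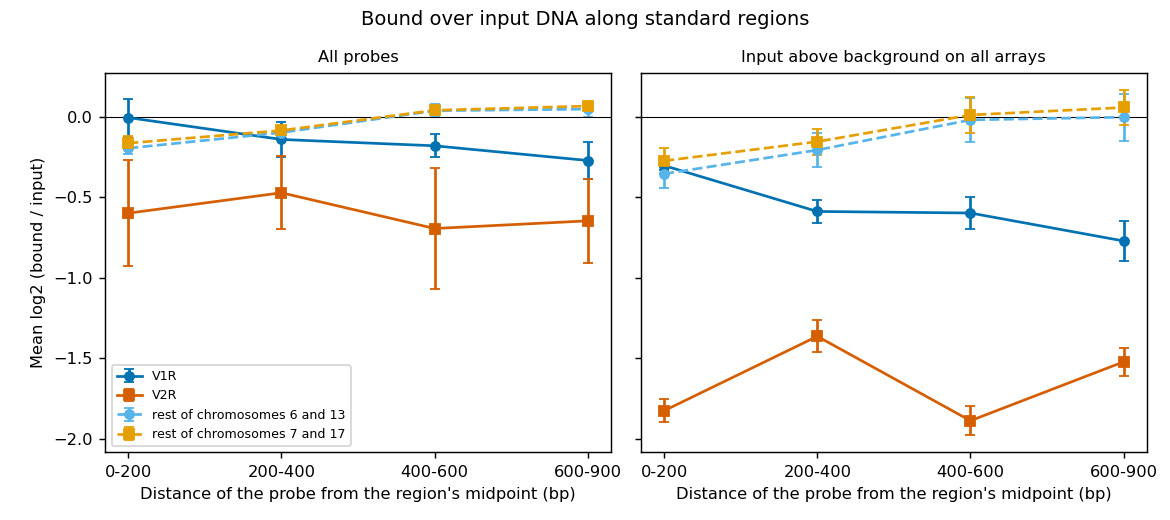
Mean log2 ratio of bound over input DNA by distance of the probe from the midpoint of its region, for V1R (blue), V2R (orange) and the rest of their chromosomes (dashed); the left panel uses all probes and the right panel probes with input above background, and bars are the SD over 3 arrays. The dashed lines rise from the centre outward. V1R falls from -0.01 to -0.27 on the left and from -0.30 to -0.77 on the right, and V2R lies below the others at every distance.

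By distance from the midpoint, V1R probes averaged -0.01 ± 0.12 within 200 bp and -0.27 ± 0.12 at 600 to 900 bp, while probes in the rest of chromosomes 6 and 13 went from -0.20 ± 0.04 to 0.05 ± 0.05. With input above background the V1R means were -0.30 ± 0.03 and -0.77 ± 0.12, and those of the rest -0.35 ± 0.09 and -0.00 ± 0.15. With this filter the V1R and other means near the midpoint lay within 1 SD of each other, and those far from it did not. V2R probes with input above background were low throughout, with -1.83 ± 0.07 within 200 bp and -1.52 ± 0.09 at 600 to 900 bp.

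The regions at the ends of this range show both shapes. In chr6:89842023-89843391 of the distal V1R interval probes near the midpoint had 1.12 ± 0.12 and those at the edges -1.01 ± 0.55, so that centre minus edges was 2.13 ± 0.67 (limma adjusted p = 0.000129). In chr6:57774976-57776170 of the proximal interval the order was turned, with -2.13 ± 0.62 in the centre, 0.24 ± 0.44 at the edges and -2.37 ± 1.05 between them (limma adjusted p = 0.000198). Among V2R regions, chr7:8244931-8246119 had a centre near the array median, 0.15 ± 0.02, between edges at -2.02 ± 0.62; bound DNA was above background in only 7 of its 36 measurements and no probe had both channels above background on all arrays, so this shape was not measured. In chr17:20481500-20482602 centre minus edges was -2.04 ± 0.16, but bound DNA was above background in only 1 of its 33 measurements, so neither its centre nor its edges had a measured ratio and the size of that difference is not known.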

How the data were processed

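Frontal cortex DNA was profiled on 3 two-channel arrays. Per the file headers, the deposited intensity values come from Agilent Feature Extraction 10.7.3.1 on build mm9, the background-subtracted and dye-normalised processed signals of Cy3 (input) and Cy5 (bound). The deposited series matrix gives the authors' log2 ratio for each spot, centred elsewhere than 0 by a normalization not given in the sources used here; it was centred on its median. The log2 of bound over input was taken per spot without outlier flags, repeated probes were averaged and each array was centred on its median probe, with no loess step. Signals near background are surrogate values, per the file headers. The deposited log10 column, red over green signal per the file headers, was used only to settle the direction.

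Regions were tested with limma 3.58.1 (R 4.3.3), a 1-group fit against 0 with Benjamini-Hochberg adjustment over all 28880 regions, checked on simulated data. Class differences were taken per array and tested with exact sign-flip permutations. Alternatives were other corrections, zero points, filters, region rules and each array left out; normexp used spot medians, with an offset of 50, since the files hold no mean signal. The arrays' number limits precision. Named regions were the 3 highest and 3 lowest of each interval among members with at least 5 probes and input above background in at least 50% of the measurements, and the extremes of centre minus edges. The members and lists were chosen with earlier results of these data known. The reference tables are of GRCm38.p6 and were used for promoter letters and gene order only; coordinates were not converted.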

Additional observations from a re-analysis of the deposited data

How the results depend on the processing

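V1R exceeded V2R in all 23 alternatives (0.13 to 0.89), V2R lay below the rest of its chromosomes in all 22 (-1.30 to -0.20), chromosome 7 in all 22 (-1.47 to -0.36) and the distal interval in all 22 (-0.65 to -0.19); mean centre minus edges stayed above 0 in all 21 (0.05 to 0.77). The sign-flip tests cannot pass 0.05 and say nothing about stability. No paired analysis was possible because there was 1 group of samples and nothing to pair across groups; class differences were already taken within each array.

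V1R minus the rest, -0.04, was -0.48 with the series matrix and turned to 0.038 with probe medians and 0.095 against regions within 5 Mb. The proximal interval, -0.0037, was -0.72 with the series matrix and turned to 0.14 and 0.23 in turn, 0.012 (trimmed by 100 kb) and 0.021 (probes at most 300 bp apart). Chromosome 13, 0.10, turned to -0.29 with the series matrix, -0.015 with input above background, -0.026 without probes dim in both channels and -0.034 with normexp and input above background. Chromosome 17 turned to 0.10 with both channels above background. Distal minus proximal, -0.36, turned to 0.33 with the series matrix, 0.099 with that and input above background, 0.040 with input above background, 0.16 with bright regions (input above background in 50% of the measurements) and 0.024 without dim regions (at least 50% of the probes below background in both channels); chromosome 7 minus 17 turned to 0.084 with the series matrix. V2R centre minus edges, 0.06, turned to -0.0075 (loess), -0.0004 (normexp), -0.0016 (probe medians), -0.064 (input above background), -0.071 (dim probes out), -0.012 (dim regions out), -0.080, -0.16 and -0.22 (series matrix, normexp, loess, each with input above background); against the rest it was -0.0013 with normexp and input. V1R minus V2R in centre minus edges was -0.042 with bright regions.

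Counts moved by over 1.5 times as follows. V1R higher, 14 of 84, became 8 (normexp, loess), 5 (series matrix), 0 (mode) and 22 (probe medians) of 84. With filters it became 8 of 58 (input above background), 5 of 39 (bright regions), 7 of 80 (dim probes out) and 7 of 56 (dim regions out). With input it was 7 (loess) and 9 (normexp) of 58. V1R lower, 24 of 84, became 60 (series matrix) and 68 (mode) of 84. With filters it became 37 of 58 (input), 38 of 58 (normexp with input), 44 of 80 (dim probes out) and 10 of 33 (both channels). V2R higher, 2, became 1 (series matrix; mode; trimmed; 1000 to 1800 bp; bright regions; dim regions out) and 4 (probe medians). V2R lower, 30 of 45, became 12 of 14 (bright regions) and 6 of 9 (both channels). Centre higher, 25, became 11 (series matrix), 9 (input), 5 (both), 14 (bright regions), 16 (dim regions out), and 10, 12 and 8 with input in the series matrix, normexp and loess. Centre lower, 17, became 10 (series matrix), 9 (dim probes out), 3 (input; bright regions; series matrix with input), 2 (both), and 5 and 6 (normexp and loess with input). Filters leave fewer regions, so a smaller count need not be a smaller share, and other causes were not tested. The centre measure existed for 61 V1R and 32 V2R regions without a filter. It existed for 17 and 9 with input above background, and for 7 and 1 with both channels.

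Leaving out 1 array gave 0.29 to 0.47 for V1R minus V2R, -0.066 to 0.0025 for V1R and -0.58 to -0.33 for V2R against the rest, -0.040 to 0.040 proximal, -0.42 to -0.29 distal, 0.07 to 0.12 on chromosome 13, -0.88 to -0.68 on 7 and -0.42 to -0.13 on 17. Calls ranged over 6 to 11 and 20 to 24 (V1R higher, lower), 2 to 4 and 23 to 32 (V2R), and 18 to 22 and 11 to 14 (centre higher, lower).

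The 30 named regional values had 590 alternative values, of which 529 kept sign and call, 20 lost and 28 gained a call, and 13 reversed. The reversals were chr6:57740894, 0.93 (both channels), 0.17 (normexp and input) and 0.54 (series matrix and input); chr13:22898295, 0.34 (both channels) and 0.45 (series matrix and input); chr13:23253395, 0.45 (series matrix and input); chr13:22684675, -0.10 with loess and input and -0.15 with the mode; chr6:90318276, -0.17, chr6:90072107, -0.44, and chr13:22919804, -0.32, with the mode; and, with gaps of 1000 bp, chr6:57551748, 0.082, and chr7:7163376, 0.90, where neighbouring regions join. The series matrix combined with a filter, normexp and loess combined with it, the filters on bright or dim regions and the equal weights were added after seeing the data.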

Other observations

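Across the 129 member regions, the region mean fell as the share of input measurements above background rose (Pearson r = -0.34, Spearman rho = -0.41, across regions that share arrays and are not independent). The correlation was stronger on chromosome 17 (r = -0.72, 29 regions) and in the proximal interval of chromosome 6 (r = -0.65, 33 regions), while Pearson's r was above 0 on chromosome 13 (0.08), in the distal interval (0.26) and on chromosome 7 (0.17, with a Spearman rho of -0.14).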
